A study of Arabidopsis thaliana with 12 samples.

Results

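The question addressed here was whether roots of the GmVP2 line answered low phosphate differently from wild-type roots. For each gene the response to low phosphate was taken in each genotype on the log2(RPKM + 1) scale, and the wild-type response was subtracted from the OX3 response. This difference of differences, the interaction, is above 0 where a gene ended relatively higher in OX3 at low phosphate and below 0 where it ended relatively lower. Every gene whose RPKM averaged 1 or more over the 12 libraries was included, which gave 18910 of the 25941 genes in the table. RPKM is the number of reads scaled by gene length and by library total.

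The libraries came from roots of Arabidopsis thaliana, Columbia-0 wild type or OX3, a single transgenic line that overexpresses the soybean gene GmVP2. Seedlings were grown for 10 d on solid MS medium with either 1250 µM phosphate (normal) or 6.25 µM phosphate (low). The wild type at normal phosphate, the wild type at low phosphate and OX3 at normal phosphate each had replicates 2, 3 and 4, and OX3 at low phosphate had replicates 1, 2 and 4. The sources used here do not give the promoter of the transgene, nothing in them says that replicates came from separate plants, and p-values therefore measure the spread between these libraries, which may be technical.

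Vacuolar proton pyrophosphatases split pyrophosphate, a by-product of biosynthesis, and use the energy to acidify the vacuole. Roots that run short of phosphate switch on a well-known programme: the transcription factor PHR1 binds the P1BS element of starvation genes, SPX proteins restrain it when phosphate is ample, and the targets take up phosphate, release it from organic compounds and replace phospholipids with galactolipids and sulfolipids. In Arabidopsis, anthocyanin pigments and genes of photosynthesis are also known to respond to phosphate supply.

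Recovered library totals ran from 17670350 to 20418541 reads, and Pearson's r between libraries of a group, across genes, was 0.990 to 0.995. Markers of root cell types, in 5 lists, were summed per library as a description. With no reference tissue, such sums cannot test root identity. They were 528.8 to 782.2 RPKM for endodermis, 129.3 to 357.3 for root hair and 230.2 to 321.9 for meristem. For xylem and phloem they were 170.7 to 247.5 RPKM, and for root cap 4.5 to 10.8. Photosynthesis genes, a mark of green tissue, summed to 767.2 to 1172.4 RPKM at normal phosphate, above the endodermis list in each of those libraries. One library stood apart: replicate 2 of the wild type at low phosphate received a weight of 0.432 in a fit that estimates the precision of each library, the lowest of the 12, where the mean weight is about 1 and the next lowest was 0.544 for replicate 4 of OX3 at low phosphate. The counts of genes called, the starvation and flavonoid medians and the ribosomal protein count are given with and without it. Most other list values are given for all 12 libraries only and may also depend on it.

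No gene passed the test of the interaction. At a Benjamini-Hochberg adjusted p below 0.05 (limma on all 18910 genes) the share called was 0%, and the smallest adjusted p was 0.379, shared by 11 genes. At an unadjusted p below 0.05 there were 1351 genes (7.14% of those tested), 577 with an interaction above 0 (3.05%) and 774 below 0 (4.09%). The test on recovered reads with limma voom also called 0 genes, with 1285 below an unadjusted p of 0.05. Without replicate 4 of OX3 at low phosphate 1 gene passed, HSP23.5, described below. Without replicate 2 of the wild type at low phosphate still no gene passed, while the number at an unadjusted p below 0.05 was 2599. It was 884 without replicate 4 of the wild type at normal phosphate.

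The precision of the 12 libraries limited how large an interaction could have gone unseen. The median absolute interaction was 0.098 and the median half-width of its 95% interval was 0.264, both on the log2 scale. The interval lay within 0.5 of 0 for 14188 genes (75.0%) and within 1 of 0 for 18539 genes (98.0%). An interaction of at least 1 in size was estimated for 31 genes, 9 above 0 and 22 below 0.

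The responses themselves were large in both genotypes. In the wild type 8692 genes (46% of those tested) changed at low phosphate, and in OX3 8895 genes (47%) did. These 2 responses share no library. Across the tested genes they had a Pearson's r of 0.959 and a Spearman's rho of 0.886, given as a description since genes are not independent replicates. Their SDs across genes were 0.619 and 0.623. Among the 1443 genes whose response averaged over both genotypes was at least 1 in size, all 1443 had the same direction in both. Their median ratio of the OX3 to the wild-type response was 0.999, and their median absolute interaction was 0.146. Choosing genes by the average of the 2 responses favours a shared direction, so these values are a description. Of 7021 genes called in both responses, 5 had opposite directions.

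**Figure D1:**
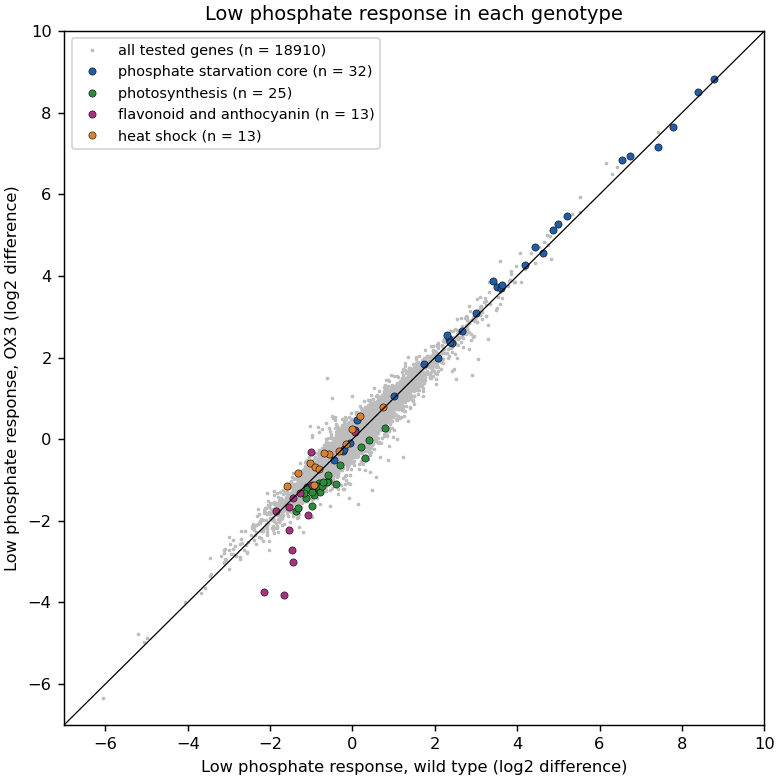
Response to low phosphate in the wild type (horizontal axis) and in OX3 (vertical axis), as log2 differences of RPKM + 1, with 1 point for each of the 18910 tested genes and the line of equal responses. Coloured points are members of 4 gene lists; the photosynthesis genes and several anthocyanin genes lie below the line and most heat shock genes lie on or above it.

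The phosphate starvation genes rose steeply and by similar amounts in both genotypes. Of the 32 genes in the core list, which spans signalling, uptake, phosphatases and lipid replacement, 25 rose and 3 fell in the wild type, and 27 rose and 4 fell in OX3. Over all tested genes 24.3% rose and 21.6% fell in the wild type, and 23.3% rose and 23.8% fell in OX3. The median response was 3.20 in the wild type and 3.40 in OX3. The interaction was above 0 for 22 members and below 0 for 10, against 8334 above and 10576 below over all tested genes, and its median was 0.098 against -0.022 over all genes. No member was called, and 3 had an unadjusted p below 0.05, all in the higher direction (3.05% of all tested genes). The interval of all 32 lay within 1 of 0, but only 18 lay within 0.5 of 0 (75.0% of all tested genes). The median half-width was 0.315 against 0.264 over all genes.

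Among the signalling genes, IPS1 (AT3G09922), a target mimic RNA of miR399, had 2.80, 2.19 and 2.61 RPKM in the wild type at normal phosphate and 1389, 1139 and 1042 RPKM at low phosphate. In OX3 IPS1 had 2.46, 3.77 and 3.05 RPKM at normal phosphate and 1454, 1451 and 1561 RPKM at low phosphate. Low and normal phosphate were far apart in both genotypes, and the interaction of IPS1 was 0.13 with a 95% interval of -0.22 to 0.48. SPX1, a phosphate sensor that restrains PHR1, had an interaction of 0.29 (-0.05 to 0.62), and SPX3 of the same family had -0.12 (-0.49 to 0.26). PHR1 itself, the transcription factor at the head of the programme, had -0.05 (-0.20 to 0.11).

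Phosphate transporters held the 2 largest interactions of the starvation list. PHT1;4 (AT2G38940), a high-affinity uptake transporter of the root, had 25.2, 25.4 and 24.4 RPKM in the wild type and 18.03, 19.94 and 17.41 RPKM in OX3 at normal phosphate. At low phosphate PHT1;4 had 324, 251 and 256 RPKM in the wild type and 306, 282 and 262 RPKM in OX3. Thus OX3 was lower than the wild type at normal phosphate without overlap, and the genotypes overlapped at low phosphate. The genotype difference of PHT1;4 was -0.42 at normal supply (limma adjusted p = 0.0285) and 0.04 at low supply (0.865), and its interaction was 0.46 ± 0.13 (SE, limma adjusted p = 0.61). PHT1;1, another root uptake transporter, had an interaction of 0.38 ± 0.16 (limma adjusted p = 0.676), but 42.5% of its 50-base stretches also occur elsewhere in the genome, so reads may be shared with a near-identical copy. PPCK1, a kinase that activates phosphoenolpyruvate carboxylase, completed the 3 with 0.27 ± 0.11 (limma adjusted p = 0.685). PS2, a phosphatase, had the lowest interaction of the list at -0.25 (-0.75 to 0.25). For lipid replacement, the galactolipid synthase MGD3 had 0.20 (-0.11 to 0.51) and the sulfolipid synthase SQD2 had 0.24 (-0.08 to 0.57).

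The size of the starvation median depended on the library that stood apart. Without replicate 2 of the wild type at low phosphate the median of the list was 0.192, with 8 members at an unadjusted p below 0.05. Over all 18910 tested genes the number below that p also went up in this fit, from 1351 to 2599. With replicate 3 or 4 of that group left out instead it was 0.048 or 0.042.

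P1BS, the element PHR1 binds, was searched as GNATATNC on both strands in the 300 bases upstream of each annotated gene start, in TAIR10.1. It occurred in 9 of the 32 starvation windows (28.1%) and in 6.6% of the windows of all tested genes. It also occurred in 5 of 20 windows of the meristem and cell cycle list (25.0%) and in 4 of 17 of the cytokinin list (23.5%). P1BS was thus not found in the starvation list alone, and with windows this few the shares cannot rank the lists. The windows of the 2 most abundant members that hold it are shown with P1BS in capitals. AT4 (chr5:894282-894581, plus strand) is a non-coding RNA related to IPS1, and PS2 is on the minus strand (chr1:27466349-27466648). A match is a string of letters, not a measured binding site.
AT4: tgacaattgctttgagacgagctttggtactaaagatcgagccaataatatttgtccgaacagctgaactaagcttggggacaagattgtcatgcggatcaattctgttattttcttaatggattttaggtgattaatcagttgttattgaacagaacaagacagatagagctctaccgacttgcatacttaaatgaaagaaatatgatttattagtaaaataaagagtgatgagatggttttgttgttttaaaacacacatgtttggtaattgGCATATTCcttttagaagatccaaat
PS2: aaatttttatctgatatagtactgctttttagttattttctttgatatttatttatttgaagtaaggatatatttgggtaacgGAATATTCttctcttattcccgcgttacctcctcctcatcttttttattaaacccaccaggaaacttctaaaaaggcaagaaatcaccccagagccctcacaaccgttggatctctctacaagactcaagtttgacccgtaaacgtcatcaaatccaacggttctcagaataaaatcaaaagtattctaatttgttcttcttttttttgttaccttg

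No pyrophosphatase gene had an interaction that passed. The 9 genes tested were the 3 membrane-bound proton pyrophosphatases, which are the relatives of the transgene product, and 6 soluble pyrophosphatases of an unrelated family. Of the 9, 5 rose and 2 fell in the wild type and likewise 5 rose and 2 fell in OX3, beside the shares of all genes given above of 24.3% and 21.6% in the wild type and 23.3% and 23.8% in OX3. The interaction was below 0 for 8 of them (55.9% of all tested genes), with a median of -0.083, and 0 had an unadjusted p below 0.05. AVP1 (AT1G15690, chromosome 1, 5398926 to 5402733 in TAIR10.1) is the main vacuolar proton pyrophosphatase. It had 182.3, 179.3 and 162.5 RPKM in the wild type and 190.8, 182.4 and 186.1 RPKM in OX3 at normal phosphate. At low phosphate AVP1 had 230, 244 and 251 RPKM in the wild type and 243, 247 and 228 RPKM in OX3. At normal phosphate the lowest OX3 library lay just above the highest wild-type library, at low phosphate the genotypes overlapped, and low and normal phosphate did not overlap in either genotype. The interaction of AVP1 was -0.11 with an interval of -0.28 to 0.07 (limma adjusted p = 0.793), so a difference in response beyond 0.28 on the log2 scale lay outside the interval. VHP2;1 and VHP2;2, pyrophosphatases of the second type that are known from the Golgi, had -0.12 (-0.33 to 0.09) and -0.20 (-0.45 to 0.05), with limma adjusted p of 0.811 and 0.742. AVP1 and VHP2;2 overlap a neighbouring gene on each strand, and VHP2;1 overlaps a gene on the opposite strand. With no strand setting known for the counting, reads there may be shared. The soluble pyrophosphatase PPA4 rose by 1.98 in the wild type and 1.92 in OX3, with an interaction of -0.06 (-0.26 to 0.14). PPA5 had the only positive interaction, 0.12 (-0.11 to 0.36).

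**Figure D2:**
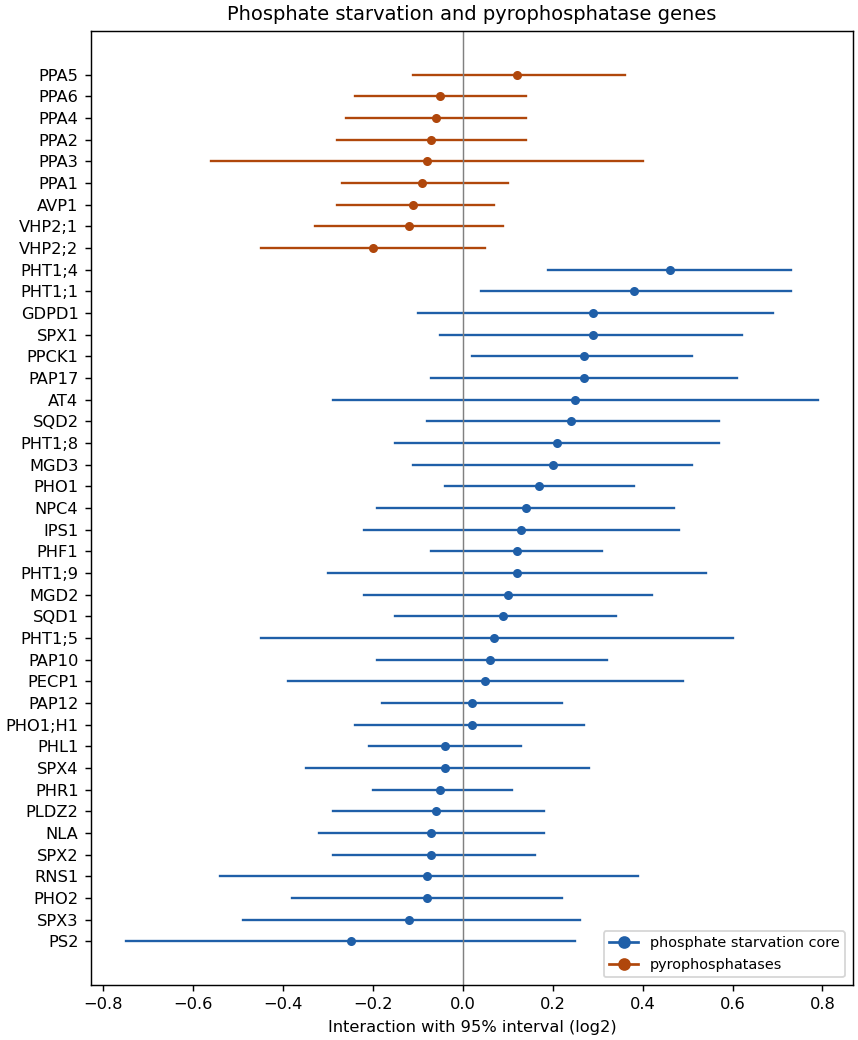
Interaction on the log2 scale (horizontal axis; OX3 response minus wild-type response) with its 95% interval for the 32 phosphate starvation genes and the 9 pyrophosphatases. Most intervals cross 0, those of PHT1;4, PHT1;1 and PPCK1 lie above it, and no gene passed the adjusted test.

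The 6 genes with the smallest p are described as not passing, each with an adjusted p of 0.379. CCL (AT3G26740, chromosome 3, 9827682 to 9828917), CCR-LIKE, is related to a clock-regulated transcript. It had 7.57, 6.97 and 7.58 RPKM in the wild type at normal phosphate and 11.8, 14.2 and 13.4 RPKM at low phosphate. In OX3 CCL had 9.77, 10.0 and 8.97 RPKM at normal phosphate and 10.7, 9.46 and 10.6 RPKM at low phosphate. Wild-type libraries at low phosphate were above all others and the OX3 groups overlapped. The wild-type response was 0.76 (limma adjusted p = 2.14e-06), the OX3 response 0.09 (0.394), and the interaction -0.67 ± 0.11 (SE). Of the 50-base stretches of CCL, 17.5% occur elsewhere in the genome.

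HSP23.5 (AT5G51440, chromosome 5, 20891163 to 20892416) encodes a small heat shock protein of mitochondria. It had 27.8, 28.2 and 28.7 RPKM in the wild type and 17.1, 19.0 and 18.1 RPKM in OX3 at normal phosphate. At low phosphate HSP23.5 had 6.27, 6.10 and 5.59 RPKM in the wild type and 7.71, 6.95 and 5.50 RPKM in OX3. The genotypes were apart at normal phosphate only, and overlapped at low phosphate. HSP23.5 fell in both genotypes, in the wild type by 2.07 and in OX3 by 1.32. The interaction was 0.75 ± 0.13 (SE, limma adjusted p = 0.379), and it reached 0.87 and an adjusted p of 0.0162 without replicate 4 of OX3 at low phosphate.

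BBX24 (AT1G06040, chromosome 1, 1828340 to 1829983), a B-box protein that acts in light signalling, rose in both genotypes. It had 18.8, 18.3 and 16.9 RPKM in the wild type and 13.4, 14.7 and 16.0 RPKM in OX3 at normal phosphate. At low phosphate BBX24 had 25.2, 23.64 and 22.5 RPKM in the wild type and 27.7, 29.5 and 31.2 RPKM in OX3. OX3 was thus below the wild type at normal phosphate and above it at low phosphate, without overlap at either level. Its response was 0.38 in the wild type and 0.96 in OX3, an interaction of 0.58 ± 0.10 (SE). A gene on the opposite strand, AT1G06045, overlaps BBX24, and with no strand setting known for the counting their reads cannot be told apart.

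AT1G11175, annotated as a non-coding RNA (chromosome 1, 3744858 to 3745655), had the same order of groups. It had 11.2, 12.4 and 12.6 RPKM in the wild type and 9.87, 11.3 and 11.2 RPKM in OX3 at normal phosphate. At low phosphate AT1G11175 had 20.3, 18.9 and 19.1 RPKM in the wild type and 25.4, 24.7 and 26.5 RPKM in OX3. The genotypes overlapped at normal phosphate and were apart at low phosphate, with responses of 0.65 and 1.17 and an interaction of 0.52 ± 0.10 (SE).

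AT3G18790 (chromosome 3, 6477661 to 6479582), a homologue of the splicing factor ISY1 known from yeast, differed mainly at normal phosphate. It had 15.5, 16.8 and 18.6 RPKM in the wild type and 10.6, 8.53 and 9.15 RPKM in OX3 at normal phosphate. At low phosphate AT3G18790 had 19.6, 17.98 and 20.7 RPKM in the wild type and 16.4, 17.3 and 18.01 RPKM in OX3. OX3 at normal phosphate was below all other libraries. The genotype difference was -0.79 at normal supply (limma adjusted p = 0.00176) and -0.16 at low supply (0.391), and the interaction was 0.62 ± 0.12 (SE). AT3G56500, which encodes a serine-rich protein and overlaps AT3G56510 on the opposite strand, had the largest interaction of the 6 at 1.08 ± 0.20 (SE). It was a low gene, at 0.668 to 0.887 RPKM in the wild type at low phosphate and at most 2.89 RPKM in any library. In wild-type roots AT3G56500 fell by 0.99 (limma adjusted p = 5.36e-05), and its OX3 response was 0.10 in the other direction (0.613). OX3 was below the wild type at normal phosphate (0.945 to 1.60 against 2.06 to 2.89 RPKM) and above it at low phosphate (1.11 to 1.79 RPKM), without overlap at either level.

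**Figure D3:**
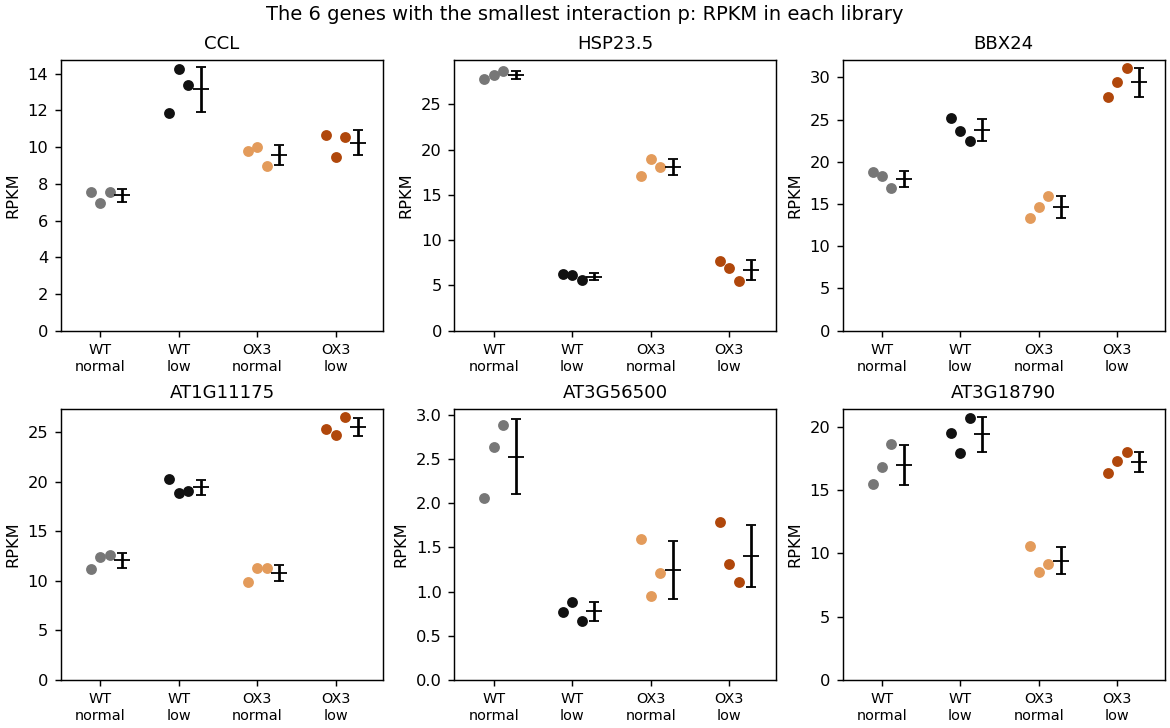
RPKM in each of the 12 libraries for the 6 genes with the smallest interaction p, with 1 point per library by group and the mean ± SD beside it (n = 3). HSP23.5 and AT3G18790 differ between genotypes mainly at normal phosphate, AT1G11175 mainly at low phosphate, and CCL, BBX24 and AT3G56500 cross over.

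Genes that moved in opposite directions in the 2 genotypes were few and changed little. In 37 genes (0.196% of those tested) low and normal phosphate did not overlap in either genotype and the directions differed, 30 higher in the wild type and lower in OX3 and 7 the reverse. The largest interaction among the 37 was 0.78 in size and the median was 0.34, whereas 7905 genes moved without overlap in the same direction in both genotypes.

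The 5 genes called in both responses with opposite directions all rose in the wild type and fell in OX3. They were chosen for that pattern, so their values are a description. MYB77 (AT3G50060), a MYB transcription factor that modulates auxin responses in roots, had 4.64, 5.08 and 4.61 RPKM at normal and 5.80, 5.27 and 7.79 RPKM at low phosphate in the wild type. In OX3 MYB77 had 4.27, 4.39 and 4.40 RPKM at normal and 3.55, 3.40 and 3.22 RPKM at low phosphate. OX3 at low phosphate was below every other library, and the interaction was -0.61 (-0.94 to -0.28). PDC1 (AT4G33070), a pyruvate decarboxylase of ethanolic fermentation, had 10.6, 9.60 and 11.8 RPKM at normal and 11.9, 11.9 and 13.4 RPKM at low phosphate in the wild type. In OX3 PDC1 had 12.2, 11.2 and 12.01 RPKM at normal and 10.3, 9.55 and 9.81 RPKM at low phosphate. Its groups did not overlap but lay close together, with less than 1 RPKM between nearest libraries, and the interaction was -0.44 (-0.67 to -0.20). AT1G14205, a low gene at 1.45 to 3.06 RPKM, had an interaction of -0.78 (-1.11 to -0.44).

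ASPGB1, an asparaginase, had -0.58 (-0.87 to -0.28), and its wild-type libraries overlapped, at 12.9 to 13.9 RPKM at normal and 13.7 to 18.6 RPKM at low phosphate. CYB561D, a cytochrome b561 protein, had -0.71 (-1.06 to -0.37). Its OX3 libraries overlapped, at 4.45 to 5.71 RPKM at normal and 3.39 to 4.66 RPKM at low phosphate, and 2 genes overlap it on the opposite strand. The interaction adjusted p of these 5 genes was 0.379 for AT1G14205, 0.58 for CYB561D and 0.61 for the other three.

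Genes of photosynthesis lay on the lower side of the interaction together. Each of the 25 listed genes above the minimum had an interaction below 0, with a median of -0.362 against -0.022 over all genes, and 16 of the 25 had an unadjusted p below 0.05 in this direction, where the share over all tested genes was 4.09%. None was called. A further 3 of the 28 listed genes were under the minimum of 1 RPKM. In the wild type 20 of the 25 fell and 2 rose at low phosphate (21.6% and 24.3% of all tested genes), and in OX3 21 fell (23.8%). Their median response was -0.81 in the wild type and -1.16 in OX3. The genotypes parted at normal phosphate, where 13 of the 25 were higher in OX3 (1.37% of all tested genes were) with a median of 0.36, and at low phosphate the median was 0.03 and 0 were called (0.0423% of all tested genes). The genotype comparison at normal phosphate and the interaction share 6 libraries, so these are not independent results.

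Photosynthesis genes mark green tissue, and in bulk roots more green cells and more RNA per cell cannot be told apart. The summed RPKM of the 28 genes was 767.2 to 880.1 in the wild type and 1101.3 to 1172.4 in OX3 at normal phosphate. At low phosphate it was 361.9 to 422.0 in the wild type and 401.0 to 441.6 in OX3. The genotypes were apart at normal phosphate and overlapped at low phosphate.

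LHCA1, PSBP1 and RBCS1A, from light harvesting, photosystem II and carbon fixation, had this order and fell in both genotypes. LHCA4, another light-harvesting member, also had the genotypes apart at normal phosphate only. It rose at low phosphate in the wild type, by 0.41, and its OX3 response was -0.02. LHCA1 (AT3G54890), an antenna protein of photosystem I, had 14.0, 14.2 and 14.5 RPKM in the wild type and 20.8, 17.7 and 18.4 RPKM in OX3 at normal phosphate. At low phosphate LHCA1 had 8.56, 6.62 and 8.56 RPKM in the wild type and 6.76, 7.94 and 6.81 RPKM in OX3. Its genotypes were apart at normal and overlapped at low phosphate, with an interaction of -0.51 ± 0.13 (SE, limma adjusted p = 0.61). PSBP1 (AT1G06680), of the oxygen-evolving complex, had the smallest p of the list. It had 33.0, 29.1 and 28.9 RPKM in the wild type and 40.2, 35.5 and 38.2 RPKM in OX3 at normal phosphate. At low phosphate PSBP1 had 21.0, 17.7 and 19.6 RPKM in the wild type and 17.9, 17.7 and 18.21 RPKM in OX3. The genotypes were apart at normal and overlapped at low phosphate. The interaction was -0.42 ± 0.10 (SE, limma adjusted p = 0.61), and PSBP1 overlaps a neighbouring gene on each strand. RBCS1A (AT1G67090), a small subunit of Rubisco, had 167, 134 and 136 RPKM in the wild type and 217, 207 and 229 RPKM in OX3 at normal phosphate. At low phosphate RBCS1A had 62.8, 54.2 and 55.1 RPKM in the wild type and 62.5, 66.1 and 71.9 RPKM in OX3. Its interaction was -0.36 ± 0.12 (SE, limma adjusted p = 0.637).

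The remaining members ranged from -0.74 for LHCB2.1 to -0.11 for PSAF, a photosystem I subunit. LHCB2.1, LHCB2.2, LHCB1.3, RBCS3B and RBCS1B share 12% to 29.5% of their 50-base stretches with other places in the genome, so reads may be divided among copies. GLK2, a transcription factor that promotes chloroplast development, had -0.30. Left-out libraries moved the median of the list between -0.422 and -0.307, and all 25 stayed below 0 in each of these fits. PSBA, encoded in the plastid and not a member of the list, was chosen after its values were seen. Its interaction was -1.0 ± 0.24 (SE, limma adjusted p = 0.61) at 0.257 to 3.21 RPKM. Of 16 plastid-encoded genes tested, 11 were below 0 (55.9% of all tested genes), with a median of -0.228.

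The I-box, known from light-regulated promoters, was searched as GATAAG in the same way and occurred in 8 of the 25 photosynthesis windows (32.0%) and in 14.2% of the windows of all tested genes. Some other lists had similar shares of the I-box, at 34.8% for auxin, 30.0% for endodermis and suberin and 29.4% for jasmonate. P1BS occurred in 0 of the 25 photosynthesis windows. The 2 members with an I-box that had the smallest interaction p are PSAD-1 (chr4:1230165-1230464, minus strand), a photosystem I subunit with an interaction of -0.42, and LHCA1 (chr3:20341177-20341476, minus strand). The I-box is in capitals, and LHCA1 holds it once on each strand.
PSAD-1: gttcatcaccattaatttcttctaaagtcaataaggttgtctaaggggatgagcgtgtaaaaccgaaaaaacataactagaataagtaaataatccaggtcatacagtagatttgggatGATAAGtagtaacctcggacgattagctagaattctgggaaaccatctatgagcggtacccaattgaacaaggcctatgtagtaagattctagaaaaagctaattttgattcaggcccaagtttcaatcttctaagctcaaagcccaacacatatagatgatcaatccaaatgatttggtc
LHCA1: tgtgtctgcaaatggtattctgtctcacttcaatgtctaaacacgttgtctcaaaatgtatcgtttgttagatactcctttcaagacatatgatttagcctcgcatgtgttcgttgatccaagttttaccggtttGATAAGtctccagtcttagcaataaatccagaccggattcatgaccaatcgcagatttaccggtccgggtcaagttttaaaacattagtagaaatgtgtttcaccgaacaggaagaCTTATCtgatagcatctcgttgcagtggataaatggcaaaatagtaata

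The late genes of anthocyanin synthesis had the largest interactions of the 26 lists. Of the 13 flavonoid genes above the minimum, out of 19 listed, 12 fell in the wild type, and 12 fell and 1 rose in OX3. Over all tested genes 21.6% fell in the wild type, and 23.8% fell and 23.3% rose in OX3. The flavonoid list, too, was chosen with earlier results of these data known. DFR (AT5G42800), dihydroflavonol reductase at the entry to the anthocyanin branch, had 8.41, 1.67 and 4.21 RPKM in the wild type and 13.9, 17.3 and 37.4 RPKM in OX3 at normal phosphate. At low phosphate DFR had 0.913, 0.324 and 0.585 RPKM in the wild type and 0.747, 0.395 and 0.487 RPKM in OX3. The genotypes were apart at normal phosphate, where the spread was wide in both, and overlapped at low phosphate. DFR fell by 1.67 (wild type) and by 3.83 (OX3), an interaction of -2.16 ± 0.54 (SE, 95% interval -3.31 to -1.01, limma adjusted p = 0.61), with a range of -2.60 to -1.69 over the fits that leave out 1 library.

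LDOX (AT4G22880), the next enzyme after DFR, had 9.03, 2.51 and 5.21 RPKM in the wild type and 14.1, 15.6 and 32.3 RPKM in OX3 at normal phosphate. At low phosphate LDOX had at most 0.44 RPKM in the wild type and at most 0.734 RPKM in OX3. TT19 (AT5G17220), a glutathione S-transferase that carries anthocyanin to the vacuole, had 10.8, 4.24 and 6.35 RPKM in the wild type and 16.2, 20.2 and 26.2 RPKM in OX3 at normal phosphate. At low phosphate TT19 had 2.81, 1.53 and 1.37 RPKM in the wild type and 1.78, 1.54 and 1.69 RPKM in OX3. In all 3 genes replicate 4 of OX3 was the highest library and replicate 2 was the highest of the wild type at normal phosphate. Interactions were -1.59 ± 0.46 for LDOX and -1.57 ± 0.35 for TT19 (SE, limma adjusted p = 0.61 and 0.58). The anthocyanin glycosyltransferases UGT79B1 and UGT75C1 had -1.24 and -0.68, and the acyltransferase 5MAT had -0.76. On the log2(RPKM + 1) scale the falls of these genes are understated where low phosphate libraries were under 1 RPKM.

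The early enzymes of the pathway did not share this size. CHS, chalcone synthase, had 933 to 1082 RPKM in the wild type and 943 to 1002 RPKM in OX3 at normal phosphate, overlapping, and an interaction of -0.04 (limma). CHI, chalcone isomerase, had -0.11, and FLS1, flavonol synthase, had 0.00. MYB12, a MYB factor that activates flavonol genes, went the other way. It had 21.3, 18.9 and 19.4 RPKM in the wild type and 15.5, 16.6 and 18.5 RPKM in OX3 at normal phosphate. At low phosphate MYB12 had 11.2, 9.64 and 7.76 RPKM in the wild type and 12.3, 14.6 and 13.2 RPKM in OX3. OX3 was below the wild type at normal and above it at low phosphate without overlap, with an interaction of 0.68 ± 0.15 (SE, limma adjusted p = 0.58). The median of the list was -0.15, and it turned to 0.036 without replicate 2 of the wild type at low phosphate.

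**Figure D4:**
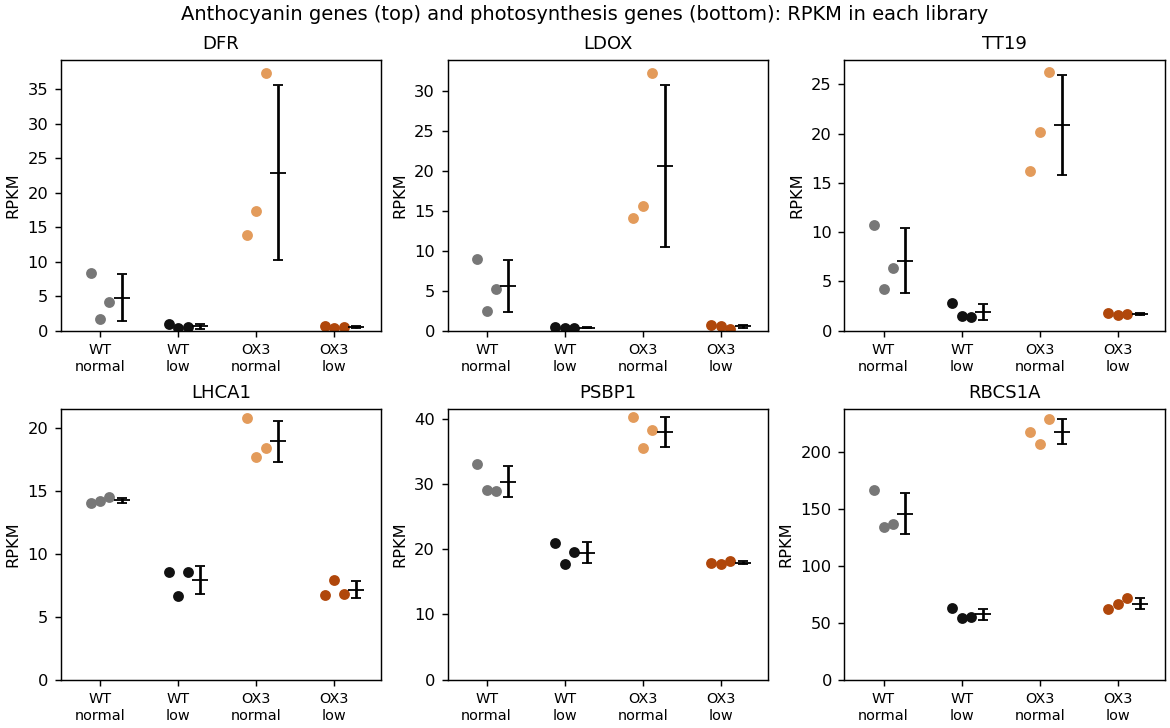
RPKM in each of the 12 libraries for the anthocyanin genes DFR, LDOX and TT19 (top) and the photosynthesis genes LHCA1, PSBP1 and RBCS1A (bottom), with 1 point per library and the mean ± SD beside it (n = 3). OX3 at normal phosphate is the highest group in all 6 panels, and at low phosphate both genotypes lie close to each other.

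The G-box, bound by bZIP and bHLH factors, was searched as CACGTG and occurred in 4 of 13 flavonoid windows (30.8%) and in 7.9% of all windows. The circadian clock list had it in 5 of 15 windows (33.3%), so it was not particular to the flavonoid list. MYB12 (chr2:19476026-19476325, plus strand) and DFR (chr5:17166033-17166332, minus strand) both hold 1 G-box, in capitals, although their interactions had opposite signs.
MYB12: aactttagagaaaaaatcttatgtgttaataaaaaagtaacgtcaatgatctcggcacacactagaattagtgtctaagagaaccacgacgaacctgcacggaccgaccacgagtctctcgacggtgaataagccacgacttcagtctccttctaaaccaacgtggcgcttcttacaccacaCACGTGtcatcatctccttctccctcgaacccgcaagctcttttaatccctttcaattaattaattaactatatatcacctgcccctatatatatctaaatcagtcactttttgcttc
DFR: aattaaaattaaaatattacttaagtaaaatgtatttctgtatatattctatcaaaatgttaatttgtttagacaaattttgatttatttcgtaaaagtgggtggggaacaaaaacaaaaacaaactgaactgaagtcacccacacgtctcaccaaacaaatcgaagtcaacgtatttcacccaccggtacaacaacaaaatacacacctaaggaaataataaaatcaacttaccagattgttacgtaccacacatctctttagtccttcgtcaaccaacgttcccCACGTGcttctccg

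Heat shock genes lay on the higher side. Of 13 tested, out of 18 listed, 12 were above 0 (44.1% of all tested genes) and the median was 0.226. An unadjusted p below 0.05 in this direction was found for 4 (3.05% of all tested genes). In the wild type 9 fell and 1 rose at low phosphate (21.6% and 24.3% of all tested genes). In OX3 8 fell and 2 rose (23.8% and 23.3%). This list was chosen with earlier results of these data known, so the counts are a description. HSP90.1 (AT5G52640), a stress-induced chaperone, had 21.6, 27.1 and 22.3 RPKM in the wild type and 15.5, 16.4 and 15.5 RPKM in OX3 at normal phosphate. At low phosphate HSP90.1 had 11.4, 10.7 and 10.97 RPKM in the wild type and 10.6, 10.4 and 9.70 RPKM in OX3. It was lower in OX3 at both levels without overlap, with differences of -0.55 at normal (limma adjusted p = 0.00785) and -0.10 at low supply (0.562), with an interaction of 0.45 ± 0.11 (SE, limma adjusted p = 0.61). HSP70-4, another chaperone, also had 0.45, HSFB1, a heat shock factor, had 0.38, and DREB2A, a drought and heat regulator, had 0.35. HSP18.2 was the exception at -0.19. All 34 tested heat shock proteins in the annotation, a wider family, had a median of 0.028, with 19 above 0.

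In the EXORDIUM family, which is known from growth control, EXL1 and EXO were lower in OX3 at low phosphate. EXL1 (AT1G35140), known to be needed when carbon is short, had 22.6, 19.5 and 19.1 RPKM in the wild type and 17.5, 16.5 and 18.25 RPKM in OX3 at normal phosphate. At low phosphate EXL1 had 16.6, 15.1 and 20.6 RPKM in the wild type and 8.94, 7.54 and 9.19 RPKM in OX3. OX3 at low phosphate was far below every other library. The genotype difference was -0.94 at low phosphate (limma adjusted p = 0.00212) and -0.21 at normal phosphate (0.228), and the interaction was -0.73 ± 0.15 (SE, limma adjusted p = 0.379). EXO, the founding member, which promotes cell expansion, had -0.37, and EXL3 had -0.34, while EXL2 and EXL4 had 0.04 and 0.02. In EXL1 and EXO OX3 lay below the wild type without overlap at normal phosphate too, but neither was called there. Of 7 tested, 5 were below 0 (55.9% of all tested genes) and 3 had an unadjusted p below 0.05 in this direction (4.09% of all tested genes). This family, too, was chosen with earlier results of these data known.

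**Figure D5:**
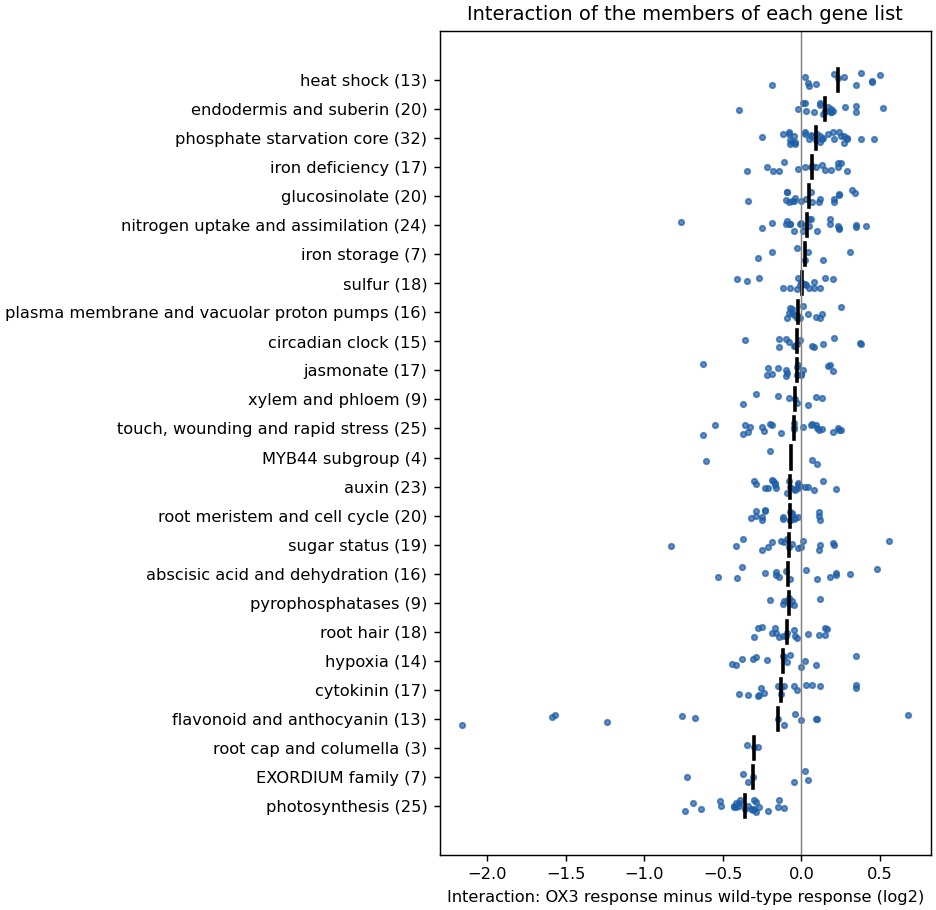
Interaction on the log2 scale (horizontal axis) of every tested member of each of the 26 gene lists, with the number tested in brackets and the list median as a black bar. The 25 photosynthesis genes above the minimum lie below 0, the late anthocyanin genes reach -2.16, and the heat shock and endodermis lists lie mostly above 0; points are spread vertically only to separate them.

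Other lists and families had smaller medians than photosynthesis. The root cap list, with 3 tested members of 4 at 0.677 to 4.32 RPKM, had a median of -0.296, 3 of 3 below 0 and 0 at an unadjusted p below 0.05. Over all tested genes 55.9% were below 0 and 44.1% above 0. Cytosolic ribosomal proteins had a median of -0.174, with 203 of 212 below 0, but 8 had an unadjusted p below 0.05, all below 0 (4.09% of all tested genes). That number was 156 without replicate 2 of the wild type at low phosphate, so 1 library decides it. Over all 18910 tested genes the number in either direction also went from 1351 to 2599 in that fit. The expansins and xyloglucan-modifying enzymes, which loosen cell walls, had 42 of 50 below 0 with a median of -0.153, and core histones 36 of 44 with -0.102. Of the 20 endodermis and suberin genes 18 were above 0 with a median of 0.15, led by MYB41, a regulator of suberin synthesis, at 0.52 ± 0.24, and the ABC transporter ABCG6 at 0.35 ± 0.13 (SE, limma adjusted p = 0.693 and 0.641). Hypoxia genes had 10 of 14 below 0 with a median of -0.116, including PDC1, LBD41 at -0.42 and the alcohol dehydrogenase ADH1 at -0.38. The highest member had 0.35. At an unadjusted p below 0.05 there were 4 on the lower side and 1 on the higher (4.09% and 3.05% of all tested genes). In the nitrogen list, 5 genes had an unadjusted p below 0.05 on the higher side and 1 of the 24 on the lower (3.05% and 4.09% of all tested genes), among them the ammonium transporter AMT1;3 at 0.41 and the nitrate transporter NRT1.8 at -0.77. Root hair genes had a median of -0.092, which changed sign in 3 of the alternative fits. Proton pumps of the plasma membrane and vacuole other than pyrophosphatases had a median of -0.023, with 0 of 16 at an unadjusted p below 0.05.

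The genotype difference was compared at the 2 phosphate levels, which share no library. At normal phosphate 587 genes differed (3.1%), 259 higher (1.37%) and 328 lower (1.73%) in OX3, and at low phosphate 8 genes differed (0.0423%), 3 higher and 5 lower. Of the 587, 526 (89.6%) had the same sign at low phosphate, where 66.6% of all tested genes did. Their median absolute difference was 0.38 at normal phosphate, the level at which they were chosen, and 0.16 at low phosphate. The reverse held for the 8, all of the same sign at normal phosphate, with 0.83 at low and 0.41 at normal phosphate. Over all tested genes the median absolute difference was 0.108 at normal and 0.087 at low phosphate. Among the 1351 genes with an unadjusted interaction p below 0.05, 906 differed more between genotypes at normal phosphate and 445 at low phosphate. No interaction passed in either set, so the counts 587 and 8 do not show that the genotypes differed less at low phosphate.

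Of the 8 genes at low phosphate, AT3G29633 had the largest difference and parted the genotypes at both levels. It had 0.608 to 0.888 RPKM in the wild type and 47.9 to 51.6 RPKM in OX3 at normal phosphate, and 0.504 to 2.03 RPKM and 28.1 to 51.8 RPKM at low phosphate. Its interaction was -0.55 (-1.24 to 0.14). JAL41, a jacalin-related lectin, rose in both genotypes, from 2.11 to 4.41 up to 22.6 to 30.5 RPKM in the wild type and from 6.42 to 7.85 up to 56.7 to 64.5 RPKM in OX3, with an interaction of 0.23 (-0.26 to 0.72). ARP9, an actin-related protein, was lower in OX3 at both levels, with -0.13 (-0.38 to 0.13). In AT3G29633, JAL41 and ARP9 the genotypes thus differed at either phosphate supply. EXL1 and MYB77 differed at low phosphate by -0.94 and -0.72. At normal phosphate their differences of -0.21 and -0.11 were not called, although OX3 lay below the wild type without overlap there too.

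The 31 genes with an interaction of at least 1 in size included 4 anthocyanin genes, DFR, LDOX, TT19 and UGT79B1, and many short non-coding RNAs with few reads. The highest was AT4G33735 at 2.12 (0.23 to 4.00), listed at 0 in 7 of 12 libraries and at most 5.15 RPKM. GRP3, a glycine-rich protein, and LTP4, a lipid transfer protein, had -1.35 (-3.02 to 0.32) and -1.08 (-2.38 to 0.21). Their wild-type libraries at low phosphate ranged from 20.3 to 72.6 RPKM and from 3.22 to 22.2 RPKM, so the spread within that group was as wide as the difference from OX3. These genes were chosen by size after their values were seen.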

How the data were processed

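RPKM values of 25941 genes were used as the authors deposited them, in 1 table without counts. The submitters' processing notes name the build TAIR10 and HTSeq 0.6.0 but not what they served for. Aligner and strand setting are not given in the sources used here. Total RNA was extracted with CTAB-PBIOZOL and made into libraries with a BGI kit, per the labels. Gene positions and upstream windows come from TAIR10.1 (RefSeq), in which 25683 of 25688 matched identifiers had the same position. Symbols came from the table and reference. Whole reads were recovered from RPKM for 100% of values within 0.01 read. The floor of 3 reads in 1 kb was 0.147 to 0.170 RPKM, and covers counting error only.

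All 4 groups entered 1 limma 3.58.1 fit (R 4.3.3, mean-variance trend) on log2(RPKM + 1) with a minimum mean of 1 RPKM. Tests were two-sided, at a Benjamini-Hochberg adjusted p below 0.05 over 18910 genes. Confidence intervals are 95%. Since no gene was called, the naming rule gave the 6 smallest p, the 5 genes of opposite direction and the 3 proton pyrophosphatases; list members and the genes of largest size were added. The 26 gene lists and 17 annotation families were chosen with earlier results of these data known, as were the members, so they are described by counts and medians. Scripts were tested on simulated data. Alternatives were other scalings, no filter, a pseudocount of 0.1, a replicate block, limma voom on recovered reads, a GC content and length correction, library weights and leaving out each library. A minimum of 10 RPKM, and motif counts in lists in place of called genes, were added after seeing the data. The transgene was not measured here.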

Additional observations from a re-analysis of the deposited data

How the results depend on the processing

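The number of genes called for the interaction was 0 in the fit reported and in each alternative with all 12 libraries: no filter, median-ratio size factors, the replicate block, a pseudocount of 0.1, limma voom, the GC content and length correction, library weights and a minimum of 10 RPKM. It ran from 0 to 1 over the 12 fits that leave out 1 library, and likewise for genes called with an interaction above 0. The 1 call was HSP23.5 without replicate 4 of OX3 at low phosphate (0.87, limma adjusted p = 0.0162), and no gene was called with an interaction below 0 in any of them. The 14 named genes kept their direction in each fit that held them; at the minimum of 10 RPKM 9 of the 14 were tested. The number at an unadjusted p below 0.05 was 1351 as reported and 2427 with library weights, 2599 without replicate 2 of the wild type at low phosphate, 884 without replicate 4 of the wild type at normal phosphate and 949 with the replicate block; the cause was not tested. Smallest adjusted p ranged from 0.0768 with library weights to 0.68 with the replicate block among fits of all libraries. The numbers did not pair libraries: deviations of same-numbered libraries correlated at -0.143 to 0.121 over 15 pairs. With library weights the flavonoid median turned to 0.017, while the photosynthesis median ran from -0.380 to -0.329 and the heat shock median from 0.184 to 0.283 over the other fits with all libraries and genes from 1 RPKM. At a minimum of 10 RPKM the 6 heat shock genes left had 0.414. Ribosomal proteins with an interaction below 0 at an unadjusted p below 0.05 numbered 8 as reported, 106 with library weights and 0 with the replicate block. Over all tested genes the numbers in either direction were 1351, 2427 and 949 in these fits. Low genes had the widest intervals: the median half-width was 0.745 for miRNA transcripts against 0.264 over all genes.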

Other observations

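Other lists of the root gave values without a passing gene. For comparison, 55.9% of all tested genes had an interaction below 0 and 44.1% above 0. The cytokinin list, with the response regulators ARR5 (-0.26) and ARR7 (-0.40), had 12 of 17 members below 0 and a median interaction of -0.125. Of 23 auxin genes 18 were below 0, with a median of -0.07 and 0 at an unadjusted p below 0.05. WRKY transcription factors had 41 of 61 above 0 with a median of 0.077, and 10 of the 61 were lower in OX3 at normal phosphate, as were 1.73% of all tested genes. Splicing factors had a median interaction of 0.013, with 12 of 115 lower in OX3 at normal phosphate, beside the same 1.73% of all tested genes. In the abscisic acid list RD26 had 0.48 and KIN2 had -0.53, each at an unadjusted p below 0.05. In the sugar status list DIN2, a sugar starvation marker, had -0.83.

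Mitochondrial transcripts in the table summed to 332.7 to 452.3 RPKM in the wild type and 402.9 to 636.3 RPKM in OX3 at normal phosphate, and to 620.0 to 802.1 RPKM and 831.3 to 900.3 RPKM at low phosphate. Low phosphate was higher than normal in the wild type and in OX3 without overlap, and the 26 tested mitochondrial genes had a median interaction of -0.012.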
